A study of Rattus norvegicus with 6 samples.

Results

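The 8 genes described here, *Sox10*, *S100b*, *Gfap*, *Ngfr*, *Cnp*, *Pmp22*, *Mbp* and *Prx*, are known for their roles in Schwann cells and other glia. They were chosen by name, with earlier results of the same arrays known, from the 13903 genes that could be named on the array, and each gene was read from the probe with the highest mean signal over the 6 arrays. All 8 genes had a probe, 13 probes in all, and all 8 passed the filter on dim probes, as did 11200 of the 13903 genes. The RNA came from pancreatic islets that were freed from the pancreas by collagenase digestion. The groups were 3 arrays of 3-month-old and 3 arrays of 12-month-old male Wistar rats, an outbred laboratory strain; age was the one factor that set the groups apart in the labels, which name no treatment. The supplement of the study names 3 rats of each age for the 3 arrays of that age, and the p values measure the spread between these samples.

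Schwann cells are the glia of peripheral nerves. Some wrap an axon in myelin, a stack of membrane held together by proteins such as myelin basic protein, while others ensheathe thin axons without myelin. In the pancreas, Schwann cells without myelin form a thin sheath around each islet and follow the autonomic fibres that enter it, and they are commonly recognised by the proteins S100B and GFAP. In RNA of whole islets, fewer cells of a type and less RNA per cell cannot be told apart.

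Signals are given as the log2 of the background-subtracted array signal after quantile normalisation, which gives every array the same distribution, and a difference of 1 on this scale is a change of 2-fold. Each age was read in its own scan. Age and scan therefore cannot be told apart in these arrays. The negative control spots read 29.5 to 31 scanner units on the 3-month arrays and 89.5 to 91 on the 12-month arrays, and 73.0 to 77.4% of the probes were well above background at 3 months against 59.5 to 64.2% at 12 months. The part of these differences in the values below was not tested.

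The label of the set was first set against other genes that define Schwann cells. *Erbb3*, the neuregulin receptor through which axons support Schwann cells, and *Cdh19*, a cadherin of Schwann cell precursors, did not rise well above background on a single array. *Mag*, which encodes a myelin-associated adhesion protein, was above it on 1 of 3 arrays at each age. The probes of these 3 genes therefore carried no comparison, and the set is called by its genes below, not by a cell type.

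At 12 months, *Sox10* and *Mbp* were lower by about 4-fold, *S100b* by 2.67-fold and *Pmp22* by 1.83-fold, while *Ngfr* and *Cnp* lay lower by less, and *Gfap* and *Prx* overlapped between the ages. Of the 8 genes, *Sox10* and *Mbp* fell at an adjusted p value under 0.05 (limma, Benjamini-Hochberg adjustment over all 17941 tested probes). The share of all tested probes that fell at this threshold was 3.05%, and the share that rose was 5.32%; none of the 8 genes rose (limma), and 0 were higher at an unadjusted p value under 0.05.

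**Figure D1:**
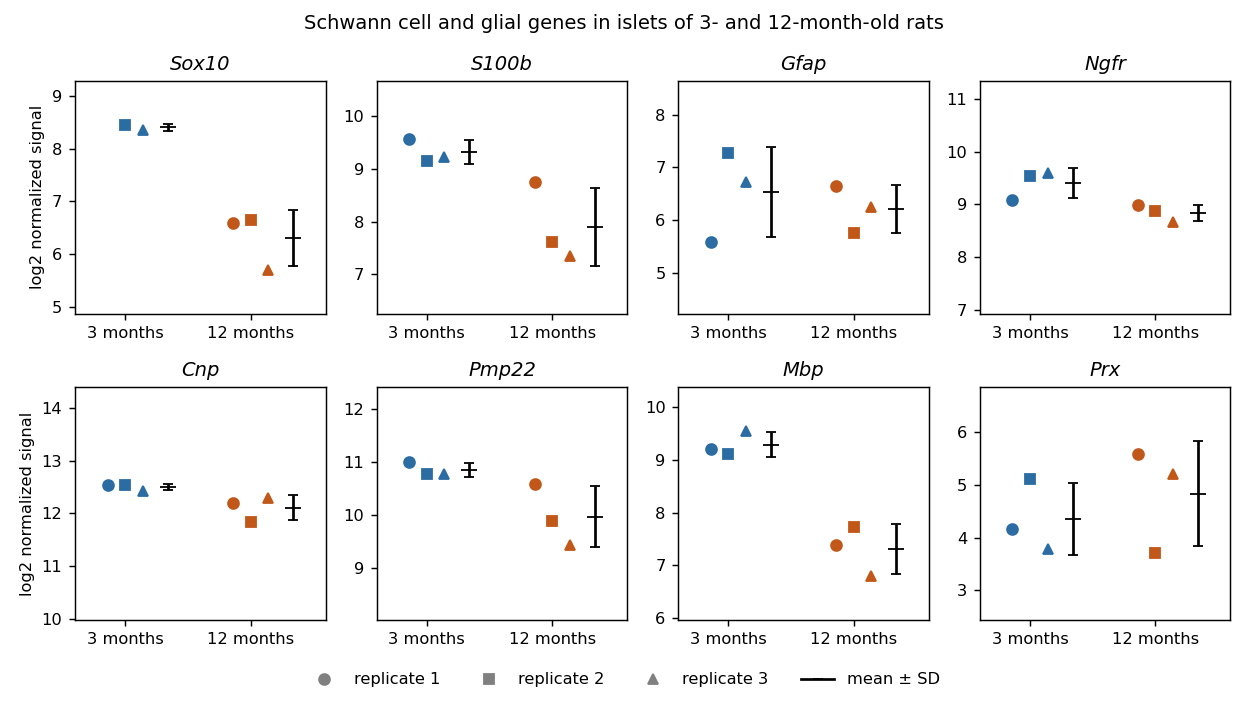
Log2 normalised signal (vertical axis) of each of the 8 genes on the 3 arrays of 3-month-old and the 3 arrays of 12-month-old rats. Points are single arrays, with the replicate shown by the shape of the point and the mean ± SD beside them. *Sox10* has 2 points at 3 months. Every measured 12-month value lies below every measured 3-month value for 6 of the 8 genes, and for 22.8% of all tested probes.

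*Sox10* encodes the transcription factor that sets and keeps the glial identity of neural crest cells and switches on myelin genes. Its signal was 8.45 and 8.35 on the 3-month arrays 2 and 3, and 6.59, 6.66 and 5.71 on the 12-month arrays. The scanner software marked the single *Sox10* spot of the 3-month array 1 as an outlier, so that this array gave no value. The lowest 3-month value lay 1.69 above the highest 12-month value, a gap wider than the SD of either age, 0.070 (n = 2) at 3 months and 0.53 (n = 3) at 12 months. The mean was 8.40 at 3 months and 6.32 at 12 months, a difference of −2.08 (SE 0.38, 95% CI −3.02 to −1.15; limma adjusted p = 0.0335), or 4.24-fold lower. With the outlier marks ignored, a choice made after the data were seen, the difference was −2.23 and the limma adjusted p value 0.0166. The limma adjusted p value rose above 0.05 when the 3-month array 1 (0.0642), 2 (0.0903) or 3 (0.110) or the 12-month array 1 (0.1001) or 3 (0.0698) was left out, with differences from −2.22 to −1.78, and was 0.0348 without the 12-month array 2.

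*Mbp* encodes myelin basic protein, which binds the inner faces of the myelin membrane together. The gene has 6 probes on the array, each made for another RefSeq transcript, and the brightest of them reads the transcript NM_017026. This probe gave 9.21, 9.11 and 9.54 at 3 months and 7.39, 7.73 and 6.80 at 12 months. All 3 arrays of 12-month-old rats lay below all 3 arrays of 3-month-old rats, with a gap of 1.37 between the ages. The mean fell from 9.29 ± 0.23 to 7.31 ± 0.47 (SD, n = 3 each), a difference of −1.98 (SE 0.31, 95% CI −2.72 to −1.24; limma adjusted p = 0.0184), or 3.95-fold. Leaving out the 3-month array 1 or 3 or the 12-month array 1 or 3 took the limma adjusted p value of *Mbp* to 0.0656, 0.0615, 0.0752 and 0.0566, with differences from −2.02 to −1.73.

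The other probes of *Mbp* were read next, as a check on a single probe. For 5 of the 6 probes the differences lay between −2.06 and −1.81 and all 5 passed the threshold (limma adjusted p = 0.00966 to 0.0266). These 5 probes ranged from 8.59 to 9.54 on the 3-month arrays and from 6.50 to 7.73 on the 12-month arrays. They share a gene, and possibly target sequence, so they are not independent readings. The sixth probe, made for NM_001025289, gave 7.26, 7.30 and 6.19 at 3 months and 7.36, 6.93 and 8.09 at 12 months. Its ages overlapped, and its difference of +0.55 (SE 0.43) did not pass the test (limma adjusted p = 0.404). Within an array, the mean of the 5 probes minus the sixth was 1.89, 1.63 and 3.17 at 3 months and 0.047, 0.58 and −1.37 at 12 months. The sixth probe was set apart after its values had been seen, so this contrast is a description without a test, and the sequences of the probes were not used here.

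**Figure D2:**
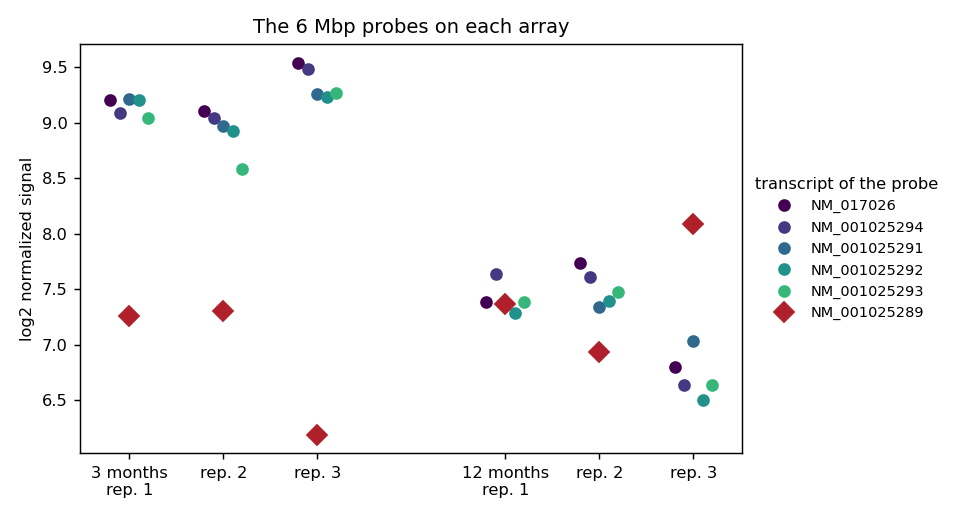
Log2 normalised signal (vertical axis) of the 6 *Mbp* probes on each array (horizontal axis), with each probe named by its RefSeq transcript and points of the 5 like probes shifted sideways for sight. The 5 probes (circles) lie between 8.59 and 9.54 at 3 months and between 6.50 and 7.73 at 12 months, while the sixth (diamonds) ranges from 6.19 to 8.09 over both ages.

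*Pmp22* encodes peripheral myelin protein 22, a membrane protein of compact peripheral myelin that other cells also make. It read 11, 10.77 and 10.77 at 3 months and 10.60, 9.88 and 9.44 at 12 months. The ages did not overlap, but the gap was 0.18 and the 12-month arrays spread over more than 1 log2 unit. The difference of −0.88 (SE 0.34, 95% CI −1.67 to −0.078) did not pass the threshold (limma adjusted p = 0.130). With arrays weighted by their quality in limma, which gave the 12-month array 1 a weight of 8.56, the difference was −0.36.

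*Cnp* encodes a phosphodiesterase found in the cytoplasm of myelinating glia. Its signal was 12.54, 12.54 and 12.43 at 3 months and 12.20, 11.84 and 12.29 at 12 months. The gap between the ages was 0.14, and the difference was −0.40 (SE 0.23, 95% CI −0.95 to 0.16; limma adjusted p = 0.275), which did not pass the threshold.

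*Prx* encodes periaxin, a scaffold protein of myelinating Schwann cells. It gave 4.15, 5.11 and 3.78 at 3 months and 5.58, 3.71 and 5.21 at 12 months, and the ages overlapped. The probe was near background, well above it on 3 of 3 arrays at 3 months and on 1 of 3 at 12 months. Its difference of +0.48 (SE 0.57, 95% CI −0.87 to 1.84; limma adjusted p = 0.575) did not pass the test, and its sign turned to −0.14 when each array was shifted by its 75th percentile in place of quantile normalisation.

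*S100b* encodes a calcium-binding protein of glial cytoplasm. It read 9.57, 9.16 and 9.23 at 3 months and 8.74, 7.61 and 7.35 at 12 months. The ages did not overlap, with a gap of 0.41, and the 12-month array 1 lay more than 1 log2 unit above the other two of its age. The mean was 9.32 ± 0.22 against 7.90 ± 0.74 (SD, n = 3 each), a difference of −1.42 (SE 0.40, 95% CI −2.37 to −0.47). This met the fold threshold, which takes its limits from the study (more than 2-fold with an unadjusted p value below 0.05). The p value for this threshold came from limma, in place of the paired test that the supplement of the study names. The difference did not meet the adjusted threshold (limma adjusted p = 0.0714). With the same array weights the difference of *S100b* was −0.71, and it met neither threshold.

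*Gfap* encodes an intermediate filament protein of glia without myelin and of astrocytes. It gave 5.60, 7.27 and 6.73 at 3 months and 6.65, 5.75 and 6.26 at 12 months. The lowest and the highest of its 6 values were both on 3-month arrays. The difference was −0.31 (SE 0.47, 95% CI −1.44 to 0.82; limma adjusted p = 0.665), an interval that holds both no change and a halving of the signal.

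*Ngfr* encodes the p75 neurotrophin receptor, which Schwann cells without myelin carry on their surface, as do some neurons. Its values were 9.08, 9.53 and 9.596 at 3 months and 8.98, 8.87 and 8.67 at 12 months. The ages did not overlap, but were 0.097 apart. The difference of −0.56 (SE 0.25, 95% CI −1.16 to 0.037; limma adjusted p = 0.174) did not pass the threshold.

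**Figure D3:**
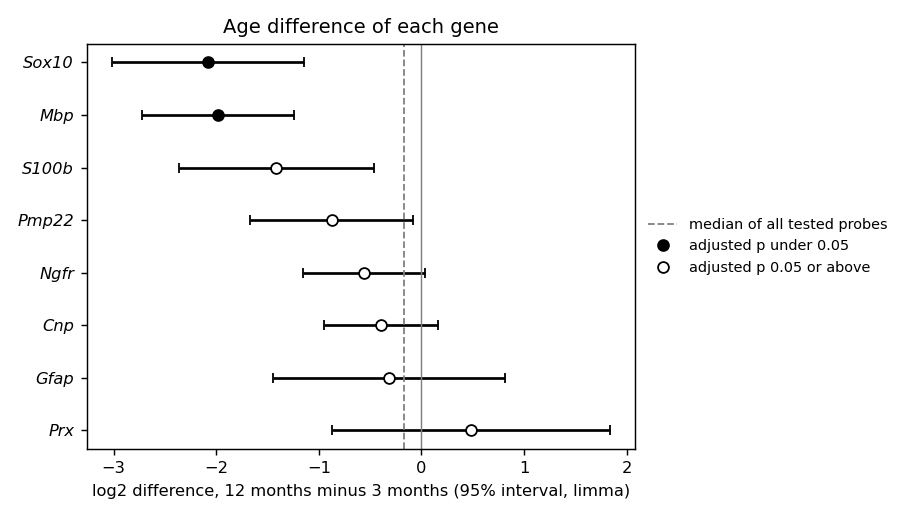
Log2 difference between 12 and 3 months (horizontal axis) for each of the 8 genes, with bars for the 95% confidence interval of the limma fit and the median of all tested probes, −0.17, for comparison. The intervals of *Sox10*, *Mbp*, *S100b* and *Pmp22* lie below 0, and those of *Cnp*, *Ngfr*, *Gfap* and *Prx* hold 0.

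The members were counted beside the share that all probes gave. At the fold threshold with the limma p value, *Sox10*, *Mbp* and *S100b*, 3 of 8, were lower at 12 months and none was higher, where 11.9% of all tested probes were lower and 10.1% higher. The paired test of the study's supplement was also used in place of limma, with its last pair formed by elimination. By this paired test 593 probes were lower at the fold threshold, in place of 2134. So were 2 of the 7 members with a value on all 6 arrays, *Mbp* and *S100b*. Every measured 12-month value lay below every measured 3-month value for 6 of 8 genes, of which *Sox10* had 2 values at 3 months and the other 5 had 3, and 22.8% of all tested probes did so. The difference was below 0 for 7 of 8 genes, *Prx* excepted, against 58.0% of all tested probes, and the median difference was −0.72 over the 8 genes against −0.17 over all tested probes. The 8 genes were picked with such results known, so these counts describe them and test nothing. Shifting each array by its 75th percentile moved the median of all probes to −0.40 and that of the 8 genes to −0.78, and at the fold threshold it raised the lower share of all calls from 54.0 to 71.8%.

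Calls were more frequent among dim probes, so the place of each gene in the range of signals was noted. With the tested probes split into 5 equal bins by mean signal, the share lower at the fold threshold was 18.9, 14.99, 15.5, 7.61 and 2.45% from the dimmest to the brightest bin. *Prx* fell in the dimmest bin, and *Sox10* and *Gfap* in the next. *S100b*, *Ngfr* and *Mbp* fell in the middle bin, *Pmp22* in the one above it, and *Cnp* in the brightest. The 3 genes lower at this threshold thus lay in the second and the third bin from the dim end.

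The signals before normalisation were also examined, because the arrays differed in their median brightness, with some overlap between the ages. The median signal of all probes was 43.6, 94.0 and 116 scanner units at 3 months and 199, 149 and 102 at 12 months. *Sox10* read 308 and 359 scanner units on the 3-month arrays 2 and 3, besides 144 at the spot marked as an outlier on array 1, and 176, 142 and 49.1 on the 12-month arrays. *Mbp* read 177, 490 and 828 units at 3 months and 326, 322 and 107 at 12 months. *S100b* read 221, 507 and 669 units at 3 months and 890, 293 and 160 at 12 months. In scanner units the ages overlapped for *Mbp*, where the 3-month array 1 lay among the 12-month arrays, and for *S100b*, where in addition the 12-month array 1 lay above all 3-month arrays. The marked *Sox10* spot lay between the values of the 12-month arrays 1 and 2. The separation of *Mbp* and *S100b* appeared after each array was put on a common scale.

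**Figure D4:**
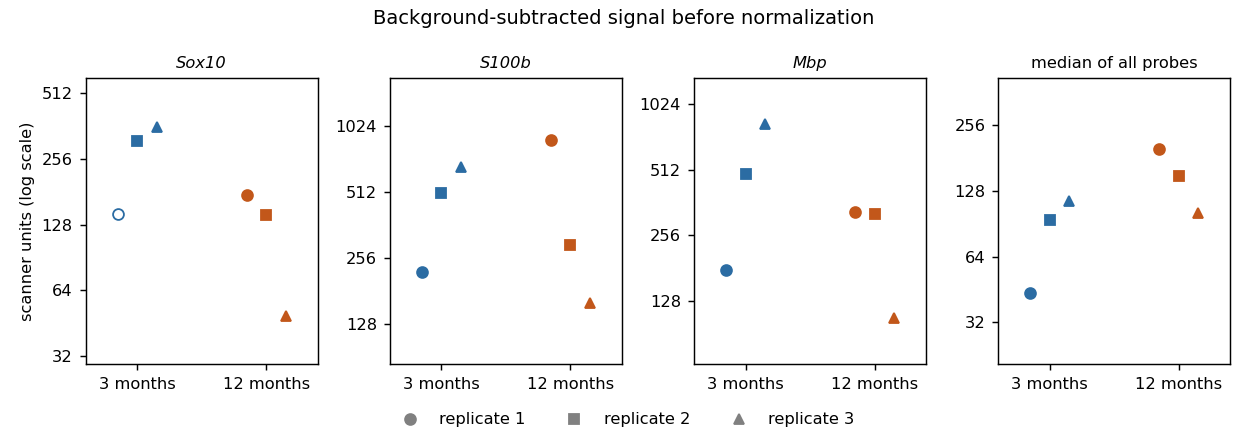
Background-subtracted signal in scanner units (log axis) of *Sox10*, *S100b* and *Mbp* and the median of all probes on each array, by age. The hollow *Sox10* point is the spot marked as an outlier; the medians of the arrays run from 43.6 to 116 at 3 months and from 102 to 199 at 12 months.

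Within an age, the genes of the set did not all follow the same order of arrays. The 12-month array 3 was the lowest of its age for *Sox10*, *S100b*, *Ngfr*, *Pmp22* and *Mbp*, 5 of 8 genes. The 12-month array 1 was the highest for *S100b*, *Gfap*, *Ngfr*, *Pmp22* and *Prx*, also 5 of 8, and the lowest for none. At 3 months, over the 7 genes measured on all 3 arrays, no array was the lowest for more than 3 genes or the highest for more than 3. The median SD of the 8 genes was 0.22 at 3 months and 0.50 at 12 months, where that of all tested probes was 0.40 and 0.35. The median spread of the 8 genes was thus below that of all tested probes at 3 months and above it at 12 months, which was not tested.

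The genes whose profile was most like that of *Sox10* were sought among 11154 genes, by the root mean square difference of the centred log2 values over the 5 arrays with a *Sox10* value. *Mbp* came 2nd in this order, with a difference of 0.20. The others of the first 5 were the olfactory receptor gene *Or51q1e* (0.067), which was well above background on 0 of 3 arrays at 12 months, *Mrps35* (0.20), which encodes a mitochondrial ribosomal protein, *Mul1* (0.22), a mitochondrial ubiquitin ligase, and *Ldb2* (0.25), a cofactor of LIM-domain transcription factors. Of the other members, *S100b* came in place 330, *Pmp22* in place 988, *Ngfr* in 1252, *Gfap* in 2139, *Cnp* in 4132 and *Prx* in 9292. The centred values still hold the age difference, so genes with a fall of a size like that of *Sox10*, *Mbp* among them, stand first. With 5 arrays, this order describes these samples only.

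The 8 genes were set beside a wider list of 91 glial genes grouped by role, of which 73 had a named probe and 61 were tested. *Nfatc4* fell, and *Nab1*, *Mal* and *Cntn1* rose, at an adjusted p value under 0.05, where 3.05% of all tested probes fell and 5.32% rose. At the fold threshold 6 of the 61 genes, or 9.84%, were lower and 5 higher, where 11.9% of all tested probes were lower and 10.1% higher. Of these 6 genes, *Sox2*, *Gfra3* and *Pmp2* were well above background on no 12-month array and passed the filter through the 3-month arrays alone, and 3 genes were lower when all 6 arrays had to be well above background. The difference was below 0 for 37 of 61 genes, against 58.0% of all tested probes. The median was −0.12 against −0.17 over all tested probes, and 4 of the 61 genes were well above background on no 12-month array. The median of the wider list thus lay close to that of the whole array, and the median of the 8 genes below both.

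Among 9 tested genes of Schwann lineage transcription, 6 had a difference below 0, with a median of −0.21. Beside this list and those below, 58.0% of all tested probes had a difference below 0. The share of all probes at an unadjusted p value under 0.05 alone is not given here, so the counts at that value describe the lists only. *Nfatc4*, a calcium-regulated partner of *Sox10*, fell from 9.80, 8.97 and 8.79 at 3 months to 7.94, 7.43 and 7.34 at 12 months, a difference of −1.62 (limma adjusted p = 0.0394), but the limma adjusted p value was 0.0592 to 0.114 whichever of the 6 arrays was left out. *Nab1*, a co-repressor of EGR factors, rose by 2.90 (limma adjusted p = 0.0106), from 2.93, 3.99 and 2.97 to 6.05, 6.57 and 5.96, and was well above background on 1 of 3 arrays at 3 months. The rise of *Nab1* was 0.89 with the normexp background correction, and its limma adjusted p value was 0.0501 without the 12-month array 1. *Sox2*, a factor of immature Schwann cells, read 5.88, 5.46 and 5.61 at 3 months and was not well above background at 12 months. It was at least 1.80-fold lower, a bound that carries no test, and did not pass the adjusted threshold in limma. *Tfap2a*, a neural crest factor, differed by −0.88 (limma adjusted p = 0.0734), and *Egr2*, the factor that drives myelination together with *Sox10*, by −0.023 (limma adjusted p = 0.988). Between these factors no common direction was seen.

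Among 18 tested genes of the myelin sheath and its lipids, 12 had a difference below 0, with a median of −0.097. *Mal*, a proteolipid of myelin and of epithelia, rose from 3.05, 4.63 and 4.75 to 6.72, 6.21 and 6.25, by 2.25 (limma adjusted p = 0.0395). The rise of *Mal* was 0.86 with the normexp background correction, and its limma adjusted p value rose above 0.05 whichever of the 6 arrays was left out, to at most 0.138. *Ninj1*, an adhesion protein induced after nerve injury, differed by −1.05 (limma adjusted p = 0.0555). *Pmp2*, a fatty acid-binding protein of peripheral myelin, read 4.96, 4.62 and 3.63 at 3 months, and the adhesion molecule *Cadm4* 4.03, 3.39 and 4.22. Neither rose well above background on a 12-month array, so that no difference is given. At the adjusted threshold in limma no gene of this list fell, and at an unadjusted p value under 0.05 2 were lower, *Pmp2* among them, and 2 higher, *Cadm4* among them.

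Among 14 tested receptors and ligands, 10 had a difference below 0, with a median of −0.29. None passed the adjusted threshold in limma, and 3 were lower and 1 higher at an unadjusted p value under 0.05. *Gfra2*, a receptor of the GDNF family (−1.29, limma adjusted p = 0.0632), and the neurotrophin *Ntf3* (−0.91, limma adjusted p = 0.110) did not pass. *Gfra3*, another receptor of this family and among the 3 lower genes, read 4.20, 5.03 and 3.73 at 3 months and was well above background on no 12-month array, so that no difference is given. *Lingo1*, a co-receptor of the p75 receptor that *Ngfr* encodes, differed by +1.47 (limma adjusted p = 0.0520).

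Among 9 tested genes of glial adhesion and the basal lamina, 4 had a difference below 0. *Cntn1*, an adhesion protein of axons and glia, rose from 5.56, 7.16 and 6.61 to 8.40, 8.04 and 9.08, by 2.07 (limma adjusted p = 0.0470), but not without the 3-month array 1 (limma adjusted p = 0.108) or 3 (0.109) or the 12-month array 1 (0.138) or 3 (0.126). *Ncam1* (+0.80, limma adjusted p = 0.0999) and the laminin receptor subunit *Itgb4* (−0.73, limma adjusted p = 0.232) did not pass. *Cntn1* and *Ncam1* are also expressed by neurons and endocrine cells. The median of this list was +0.20 and changed to −0.074 when arrays were shifted by their 75th percentile.

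Among 11 tested genes of glia without myelin or of glia in general, none passed either threshold in limma, where 2 were lower and 0 higher at an unadjusted p value under 0.05, and the median of +0.023 became −0.24 when arrays were shifted by their 75th percentile. *Slc1a3*, a glutamate transporter, differed by −0.68 (limma adjusted p = 0.151), *Gap43*, a growth cone protein also made by Schwann cells, by −0.59 (limma adjusted p = 0.153), *Gpm6b*, a proteolipid, by +1.34 (limma adjusted p = 0.219) and *Apod*, a lipid carrier, by −0.37 (limma adjusted p = 0.336). Of the genes of central glia, *Aqp4*, a water channel, *Cspg5*, a proteoglycan, and *Slc1a2*, a glutamate transporter, differed by +1.26, +1.02 and −0.62 (limma adjusted p = 0.141 to 0.267), and *Mog*, a myelin protein, was well above background on no 12-month array.

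**Figure D5:**
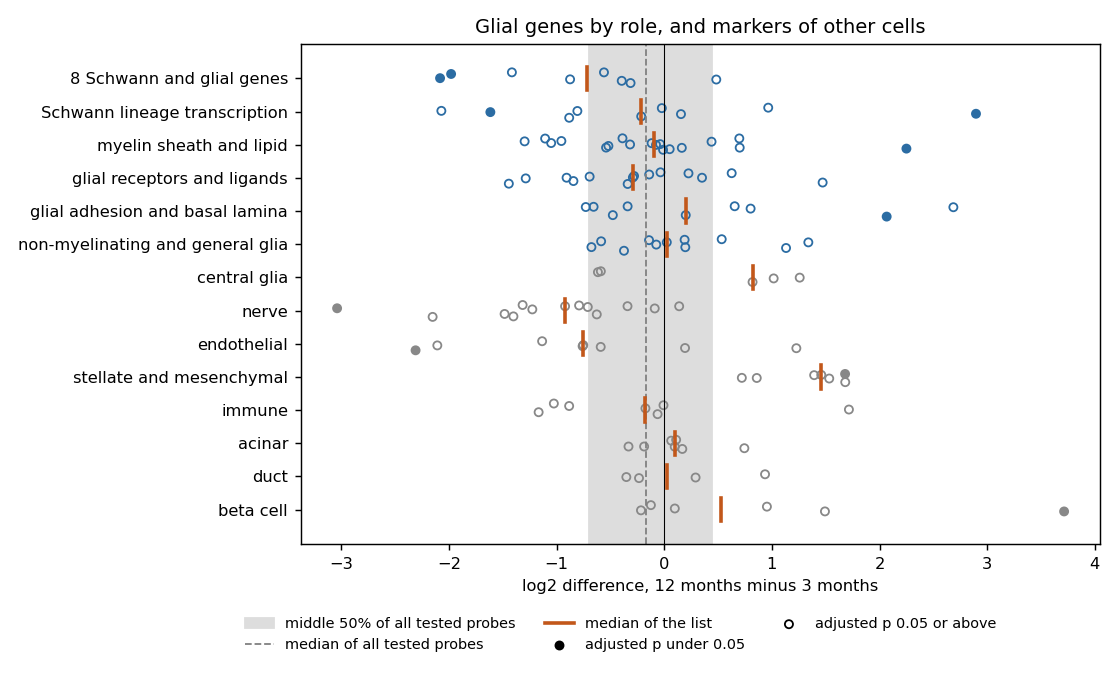
Log2 difference between 12 and 3 months (horizontal axis) for each tested gene of the 8-gene set, of the wider glial lists and of the markers of other cells, 1 row per list. Filled points passed an adjusted p value under 0.05, orange bars are medians of the lists, and the grey band holds the middle 50% of all tested probes; the nerve and endothelial medians, −0.92 and −0.76, lie to the left with that of the 8 genes, −0.72, and the stellate median, +1.46, to the right.

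Markers of the other cells that islet preparations hold moved between the ages as well, and their part in the values of the 8 genes was not tested. Of 13 tested nerve genes, 12 had a difference below 0, with a median of −0.92, and 5 were lower at the fold threshold. Over all tested probes, 58.0% had a difference below 0, with a median of −0.17, and 11.9% were lower at this threshold. The summed linear signal of the nerve genes ranged from 22464 to 31997 at 3 months and from 12729 to 16521 at 12 months. *Prph*, the intermediate filament peripherin of autonomic and sensory neurons, fell from 12.03, 11.10 and 10.02 to 8.57, 8.26 and 7.20, by 3.04 on the log2 scale (limma adjusted p = 0.0299), but not without the 3-month array 1 (limma adjusted p = 0.0860) or 2 (0.0680) or the 12-month array 1 (0.0782) or 3 (0.0865). *Phox2a*, a factor of autonomic neurons, *Nefm*, a neurofilament, and *Dbh*, which makes noradrenaline, differed by −1.48, −0.92 and −2.15 (limma adjusted p = 0.0613 to 0.0672). Of the 13 nerve genes, 7 lay lower on every 12-month array than on every 3-month array, and 1, *Prph*, passed the adjusted threshold. Of all tested probes, 22.8% lay lower in this way and 3.05% fell at the adjusted threshold.

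Of 8 tested endothelial genes 6 had a difference below 0, with a median of −0.76 and a summed signal of 59816 to 78244 at 3 months and 34301 to 58074 at 12 months. *Cldn5*, a tight junction protein of vessels, fell by 2.31 on the log2 scale (limma adjusted p = 0.0271), but not without the 3-month array 1 (limma adjusted p = 0.0708) or 3 (0.0665) or the 12-month array 1 (0.0736) or 3 (0.0796). *Cdh5*, the cadherin of vessel walls, was not well above background at 12 months and was at least 1.54-fold lower, a bound that carries no test. It passed the filter through the 3-month arrays alone and did not pass the adjusted threshold in limma. The receptor *Tek* differed by −1.14 and the adhesion protein *Pecam1* by +1.23 (limma adjusted p = 0.0720 and 0.124). Stellate and mesenchymal genes lay in the other direction, with 7 of 7 tested genes above 0, a median of +1.46 and a summed signal of 12769 to 24323 at 3 months and 36710 to 79419 at 12 months. *Pdgfrb*, a receptor of pericytes and stellate cells, rose by 1.68 (limma adjusted p = 0.0453), but not without the 3-month array 1 (limma adjusted p = 0.133) or 3 (0.116) or the 12-month array 1 (0.150) or 3 (0.102). *Col3a1*, *Dcn* and *Rgs5* differed by +1.68, +1.39 and +1.46 (limma adjusted p = 0.0670 to 0.0961).

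The remaining marker lists held few differences that passed a threshold. Over 7 tested immune genes the median was −0.18 and the summed signal 32644 to 88468 at 3 months and 24461 to 84869 at 12 months. The macrophage genes *Csf1r*, *C1qa* and *Aif1* and the antigen presentation gene *Cd74* differed by −1.17, −1.03, −0.88 and +1.72 (limma adjusted p = 0.182 to 0.457). Over 7 acinar genes, which encode digestive enzymes, the median was +0.097, which turned to −0.45 under the 75th percentile shift, and the summed signal was 1331630 to 1960940 at 3 months and 1174640 to 2122670 at 12 months. *Amy2a3*, *Cela1* and *Ctrb1* differed by +0.17, −0.19 and +0.74 (limma adjusted p = 0.640 to 0.753). Both of these lists overlapped between the ages in their summed signal, unlike the nerve and the endothelial genes.

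Over 4 duct genes the median was +0.028, which turned to −0.083 under the 75th percentile shift, and the summed signal was 24662 to 32611 at 3 months and 37699 to 47922 at 12 months. The epithelial adhesion gene *Epcam* and the duct genes *Cftr* and *Krt19* differed by +0.94, +0.29 and −0.23 (limma adjusted p = 0.0579 to 0.679). No immune, acinar or duct gene passed the adjusted threshold in limma, and at an unadjusted p value under 0.05 there was *Epcam* alone. Over 6 beta cell genes the median was +0.53, which turned to −0.041 under the same shift, and the summed signal was 827286 to 968675 at 3 months and 1002530 to 1166330 at 12 months. *Slc30a8*, the zinc transporter of insulin granules, rose by 3.71 (limma adjusted p = 0.00904), and *Iapp*, *Ucn3* and *Nkx6-1* differed by +0.95, +1.49 and −0.22 (limma adjusted p = 0.0532 to 0.650).

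The promoters of the 8 genes were searched for the core letters bound by SOX factors, ACAAAG, and for an EGR motif, GCGNGGGCG, on both strands. RefSeq promoters of assembly GRCr8, 300 bases around the start of each gene, were at hand for 6 of the 8 genes, without *Sox10* and *Ngfr*. ACAAAG was found in 2 of the 6 genes, *Cnp* and *Mbp*, and in 18.8% of all 33469 promoters, and GCGNGGGCG in 0 of the 6 and in 4.98% of all. The 30 bases around both matches are shown because these were the members that held it, with the motif in capitals. The *Cnp* match lies at chr10:86011289-86011318 on the plus strand, 203 bases before the start, and the *Mbp* match at chr18:78209995-78210024 on the plus strand, 240 bases before the start, with the motif on the opposite strand:
Cnp: aacttttaagtaACAAAGaggtggcggact
Mbp: aagaaagcggCTTTGTccctctcgaggcct
Both matches are descriptions of letters, at positions of a build other than that of the array design, and no binding was measured here.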

How the data were processed

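Islet RNA of 3 samples of 3-month-old and 3 of 12-month-old male Wistar rats had been labelled with Cy3 and hybridised to 1-colour Arraystar/Agilent arrays. Per the file headers, the scanner files give spot intensity from Agilent Feature Extraction 11.0.1.1, already background-subtracted but not normalised between arrays. A table of quantile-normalised log2 values of 12145 probes, also from the authors, served as an alternative. Log2 intensity, averaged over spots not marked as outliers, was quantile normalised. Probes well above background on at least 3 of 6 arrays were kept (17944 of 24684), and 17941 could be tested. Ages were taken from the labels and compared in R 4.3.3 by limma 3.58.1, using lmFit and eBayes without a block, in two-sided tests adjusted by Benjamini-Hochberg. The fit was tested on simulated data. Of 15321 mRNA probes, 14274 were named through RefSeq accessions in a table of assembly GRCr8, and a gene with several probes was read from the brightest. The array design is annotated to another build, so genes have no coordinates here.

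A bound ("at least N-fold") sets the mean of the brighter age against the mean, over the arrays of the other age, of the higher of the probe's own signal and the lowest signal well above background. Arrays have no read depth, and their number limits the precision. The members and gene lists were chosen with earlier results of these data known. Named with values were all members, in each list the genes with an adjusted p value under 0.05 or the 4 smallest p values, the 5 genes nearest to *Sox10*, and, as defining genes, *Egr2*, *Erbb3*, *Cdh19* and *Mag*; some genes that this rule names are not reported here. The 12-month array called 3 has no number in its labels, so numbers were not taken as pairs. Deviations of same-numbered arrays from the mean of their age correlated at −0.01, −0.31 and −0.26. Within an age these deviations sum to 0, so the correlations cannot show whether the arrays were paired. Alternatives changed the scaling, background correction, filter, fit, test, block and probe rule, or left out 1 array. A slide or scan block could not be fitted, since each scan held 1 age.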

Additional observations from a re-analysis of the deposited data

How the results depend on the processing

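*Sox10* kept its sign in 17 of 17 alternatives (−2.25 to −1.43, limma or t-test adjusted p = 0.0138 to 0.327) and passed the adjusted threshold in 9, and *Mbp* in 20 of 20 (−2.19 to −1.48, adjusted p = 0.00449 to 0.288) and in 11. *S100b*, *Ngfr*, *Cnp* and *Pmp22* kept their sign in 20 of 20 and passed in none. The count of members that fell at an adjusted p value under 0.05, 2 as reported, was 1 when probes had to be well above background on all 6 arrays, where the marked spot of *Sox10* counts as not above it. It was 0 with the replicate block on the numbered arrays, 0 with the replicate block of 3 pairs, 0 over the 4 arrays whose names share an ending, 0 in the methods' t-test and 0 in the paired t-test. At the fold threshold 2, 3, 2, 2 and 2 members were lower in these settings, in the same order, against 3 as reported. Of all tested probes 1160, 1821, 1192, 1260 and 593 were lower at the fold threshold, against 2134 as reported. Over all tested probes, 0, 5, 0, 186 and 0 fell at the adjusted threshold in these settings, in the same order, against 547 as reported. In the labels 2 pairs of arrays share a number, and both t-tests omit *Sox10*, which lacks 1 value. Leaving out 1 array gave 0 to 2 members at the adjusted threshold (0 without the 3-month array 1 or 3 or the 12-month array 1 or 3, and 1 without the 3-month array 2), and 3 to 4 at the fold threshold, where 3 were reported. Of all tested probes, 52, 261 and 83 fell at the adjusted threshold without the 3-month array 1, 2 or 3. Without the 12-month array 1, 2 or 3, 31, 1040 and 40 did. The median of the members, −0.72, was −0.41 with array weights, which gave the 12-month array 1 a weight of 8.56, and −0.91 to −0.55 when 1 array was left out. *Prx* reversed to −0.14 under the 75th percentile shift, the sixth *Mbp* probe to −0.13 with the replicate block on the numbered arrays, and *Gfap*, from −0.78 to 0.056 when 1 array was left out, to the last of these values without the 3-month array 2. Of the wider glial genes, 1 fell at the adjusted threshold, against 4 under the 75th percentile shift, 2 with normexp, 3 without a filter, 3 with all 6 arrays above background, 2 with a trend and robust fit, 5 with array weights, 6 at an adjusted p value under 0.1, and 0 with either block, over the 4 arrays or in either t-test; at the fold threshold 6 became 11 under the shift, 2 with normexp and 3 with all 6 arrays above background, and leaving out 1 array gave 0 to 1 and 5 to 9. Of all probes, 926 fell at the adjusted threshold under the shift, 703 with normexp and 916 without a filter. There were 621 with all 6 arrays above background, 773 with a trend and robust fit and 3289 with array weights. At the fold threshold the 2134 probes as reported became 3533 under the shift, 860 with normexp and 1210 with all 6 arrays above background. The filter settings also changed the number of tested probes. What causes these changes was not tested. For *Prx*, signal near background limits what can be read.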
